A study of Mus musculus with 12 samples.

Results

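Oligosaccharyltransferase is the complex of the endoplasmic reticulum (ER) membrane that moves a preassembled glycan from a lipid carrier onto asparagines of proteins entering the ER. The members described here are its subunit genes, chosen by name: 10 genes, of which 9 were found in the count files and tested among 16221 genes (the files list 55416 gene identifiers), while Tusc3 is not analysed here. All libraries were poly(A) RNA from E14Tg2a.4 mouse embryonic stem cells with tagged ribosomes: Rpl31, a protein of the large subunit, was fused to FLAG, a TEV site and the biotin acceptor AviTag (Rpl31-FTA). All groups also shared transfection with plasmids for both fragments of ALIBi, a split biotinylation system that was targeted either to the cytosol or to the ER, and no label of these libraries names an siRNA. Biotinylated ribosomes were purified and their RNA sequenced (ribosome-bound), beside RNA from lysate kept back before purification (whole-cell). The 4 groups were thus cytosol ribosome-bound, ER ribosome-bound, cytosol whole-cell and ER whole-cell, each with 3 biological replicates, and the labels do not say whether these were separate cultures. Expression came from transient transfection of 1 cell line, and the labels do not say what share of the cells took up the plasmids.

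In mammalian cells the complex exists in 2 forms that share most subunits. OST-A, built around the catalytic subunit Stt3a, is held at the Sec61 protein-conducting channel by Ostc and Krtcap2 and glycosylates chains as they are being translocated. OST-B, built around the paralog Stt3b, contains an oxidoreductase, Magt1 or Tusc3, and acts on sites that OST-A has skipped. Rpn1, Rpn2, Ddost and Dad1 belong to both forms, as do the very small proteins Ost4 and Tmem258. Ost4 and Tmem258 were described beside the members with Mlec, a lectin of the ER that binds glucosylated glycans and associates with Rpn1.

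Genes received 21.1 to 26.9 M counted reads per library, and single members received 482 (Magt1) to 27131 (Rpn2) reads. Replicates of every group differed beyond counting noise (chi-square per gene 2.11 to 9.12). Levels are given in CPM, counts per M reads scaled by the trimmed mean of M values (TMM), and changes as log2 ratios with their standard error (SE) from edgeR's quasi-likelihood test. A gene was called when its p, adjusted by Benjamini-Hochberg over all 16221 genes, was under 0.05. The cell type label was checked against markers: 9 of 9 pluripotency genes reached 1 CPM in every library, with summed levels of 8561 to 8921 CPM in whole-cell RNA. Of 6 fibroblast and feeder markers, Thy1 (15.96 to 17.57 CPM) and Pdgfrb (13.63 to 16.23 CPM) were highest in whole-cell RNA, and Lum was at 0. The summed level of the 6 was 35.0 to 37.7 CPM in whole-cell RNA. It was 88.5 to 92.8 CPM in ER ribosome-bound RNA, where these genes of secreted and surface proteins moved with the members, and their part in the results was not tested. Sums of the markers of other lineages in whole-cell RNA were 10.7 to 13.1 CPM for 5 endoderm, 15.3 to 18.0 CPM for 4 mesoderm and 59.1 to 66.7 CPM for 4 neural genes. The highest of each list were Gata4 (4.78 to 5.75 CPM), Eomes (14.05 to 16.42 CPM) and Tubb3 (52.6 to 58.9 CPM). Foxa2 and Neurog2 were at or near 0.

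The starts of the coding sequences are shown because the subunits differ in where their first hydrophobic segment lies. Rpn1, Rpn2 and Ddost are made with a cleavable signal sequence at the very start. In Ostc and Dad1 the first hydrophobic segment found by the scan described next lies further in. Ost4 is a single short membrane helix. The starts below are from GENCODE M21 transcripts (longest coding transcript), 5′ to 3′ from the start codon, with the codons of the first hydrophobic segment in capitals. A segment is a single window of 19 residues with a mean Kyte-Doolittle hydrophobicity of at least 1.6. Windows were taken from the highest mean downward and could not overlap, so a long hydrophobic stretch can hold more than 1 segment. This is a scan of the sequence and not a count of membrane spans.
Rpn1: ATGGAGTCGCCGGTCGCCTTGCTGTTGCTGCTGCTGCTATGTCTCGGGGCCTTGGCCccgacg
Rpn2: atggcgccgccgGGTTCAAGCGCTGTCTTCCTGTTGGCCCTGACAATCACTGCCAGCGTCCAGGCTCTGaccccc
Ddost: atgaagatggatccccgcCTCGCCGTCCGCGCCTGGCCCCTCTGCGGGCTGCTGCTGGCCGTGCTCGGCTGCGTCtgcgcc
Ostc: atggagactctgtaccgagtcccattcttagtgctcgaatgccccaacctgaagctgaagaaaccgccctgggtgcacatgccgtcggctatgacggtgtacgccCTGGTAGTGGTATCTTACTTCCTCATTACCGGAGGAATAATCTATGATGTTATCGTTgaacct
Dad1: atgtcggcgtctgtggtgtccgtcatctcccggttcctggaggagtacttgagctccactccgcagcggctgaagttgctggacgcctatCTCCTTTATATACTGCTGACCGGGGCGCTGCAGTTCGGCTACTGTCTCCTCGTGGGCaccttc
Ost4: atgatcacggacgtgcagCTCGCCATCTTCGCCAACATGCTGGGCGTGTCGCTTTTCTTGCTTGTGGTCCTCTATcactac
The first segment began at residue 1 in Rpn1, 5 in Rpn2, 7 in Ddost, 36 in Ostc and 31 in Dad1. In Ost4 it began at residue 7 of 37 and left 12 residues after it. Among the tested members whose starts are not shown, it began at residue 2 in Krtcap2, 20 in Stt3a, 39 in Magt1 and 72 in Stt3b. The position in Magt1 depends on the start codon used, since its longest coding sequence holds a later in-frame ATG shortly before this segment. The scan does not tell a cleavable signal sequence from a membrane helix. Any relation of these positions to the ratios below was not tested.

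All 9 subunits tested were higher on ER-labelled than on cytosol-labelled ribosomes, by 2.72-fold (Krtcap2) to 6.36-fold (Ddost). Over all genes, 29.1% were called higher and 24.6% lower in this comparison (4715 higher and 3983 lower, which became 8543 and 518 with scaling to 85 cytosolic reference genes). The members' median log2 ratio was 1.96, beside 0.00 over all tested genes. The sum of the 9 members was 3448 ± 31.7 CPM (SD, n = 3) on ER-labelled ribosomes and 728 ± 22.0 CPM on cytosol-labelled ones. In whole-cell RNA it was 1137 ± 10.5 CPM in the cytosol-targeted and 1145 ± 31.7 CPM in the ER-targeted cells. These are sums of reads relative to each library, so they do not measure the amount of ribosomes or of RNA per cell.

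**Figure D1:**
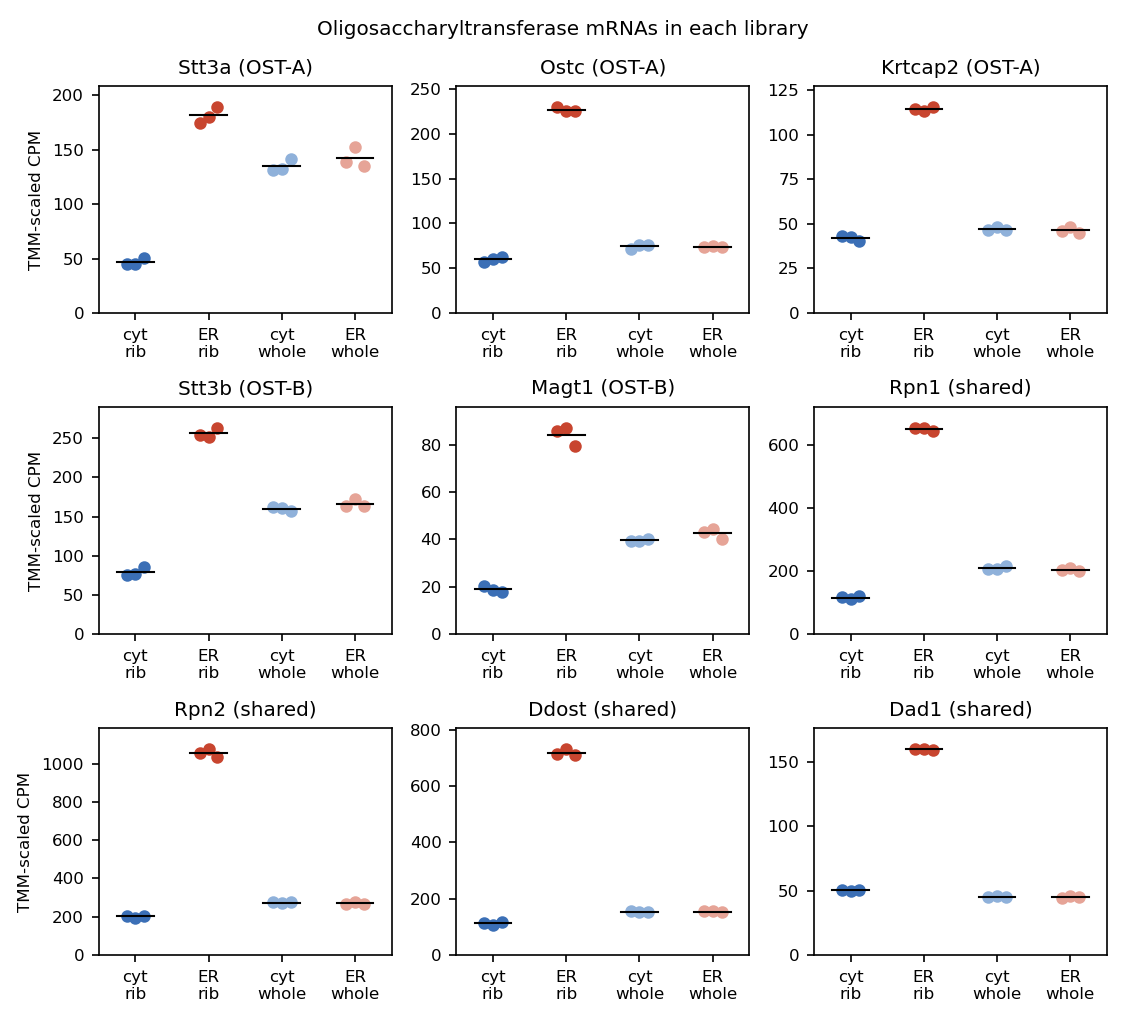
Level of each of the 9 subunit mRNAs in each of the 12 libraries, in TMM-scaled CPM (vertical axes start at 0 and differ between panels); points are libraries, lines group means, and "cyt" stands for cytosol, "rib" for ribosome-bound and "whole" for whole-cell. For every subunit the 3 ER ribosome-bound libraries lie above all others, and for every subunit but Dad1 the 3 cytosol ribosome-bound libraries lie below all others.

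Stt3a, the catalytic subunit of OST-A, stood at 174.9, 179.7 and 189.5 CPM on ER-labelled ribosomes and at 44.9, 44.7 and 50.4 CPM on cytosol-labelled ones. In whole-cell RNA it was at 131, 132 and 141 CPM in cytosol-targeted and at 138, 152 and 135 CPM in ER-targeted cells. The ER ribosome-bound libraries were thus the highest, the whole-cell libraries not far beneath them, and the cytosol ribosome-bound ones well apart at the bottom. The log2 ratio of ER-labelled over cytosol-labelled ribosomes was 1.96 (SE 0.048, adjusted p = 9.0e-29, edgeR). Both parts of this ratio were unequal: over whole-cell RNA, ER-labelled ribosomes gave 0.35 (SE 0.044), the smallest such ratio among the members, and cytosol-labelled ribosomes gave -1.53 (SE 0.049), rank 159 from the lowest of 16221 genes.

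Stt3b, the catalytic subunit of OST-B, showed a like pattern with a narrower range. It was at 254, 252 and 264 CPM on ER-labelled ribosomes and at 75.4, 76.5 and 85.2 CPM on cytosol-labelled ones, without overlap. Whole-cell libraries had 162, 161 and 157 CPM with cytosol targeting and 163, 172 and 164 CPM with ER targeting. The log2 ratios were 1.70 (SE 0.041) for ER-labelled over cytosol-labelled ribosomes, 0.62 (SE 0.039) for ER-labelled ribosomes over whole-cell RNA and -1.01 (SE 0.041) for cytosol-labelled ribosomes over whole-cell RNA. The proteins of Stt3a and Stt3b have 705 and 823 residues and were identical at 430 of 688 aligned positions (62.5%).

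Ostc and Krtcap2, the small proteins that tie OST-A to the channel, moved differently from Stt3a. Ostc had 230.2, 225 and 225 CPM on ER-labelled and 57.2, 60.7 and 62.3 CPM on cytosol-labelled ribosomes, against 71.6 to 76.4 CPM in the 6 whole-cell libraries. Krtcap2 had 114, 113 and 116 CPM on ER-labelled and 43.2, 42.7 and 40.6 CPM on cytosol-labelled ribosomes, against 45.0 to 48.4 CPM in whole-cell RNA. Both were far higher on ER-labelled ribosomes than anywhere else, and their cytosol-labelled libraries sat just under the whole-cell ones. Over cytosol-labelled ribosomes the log2 ratio was 1.92 (SE 0.039) for Ostc and 1.44 (SE 0.043) for Krtcap2, the smallest among the members. Reads of Krtcap2 are uncertain, since 15.7% of its exon bases overlap Trim46 on the other strand and the strand setting of the counting is not given in the sources used here.

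Magt1, the thiol oxidoreductase of OST-B, had the lowest level of the members in CPM. Its libraries were at 86.0, 87.3 and 79.7 CPM on ER-labelled ribosomes, 20.5, 18.7 and 17.9 CPM on cytosol-labelled ribosomes, and 39.3 to 44.3 CPM in whole-cell RNA. The 3 kinds of RNA did not overlap. The log2 ratio between both ribosome pools was 2.15 (SE 0.055), above those of the catalytic subunits.

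Ddost, Rpn1 and Rpn2, shared by both forms, had the largest ratios between both ribosome pools. Ddost, a subunit with a large domain in the ER lumen, had 714, 733 and 711 CPM on ER-labelled ribosomes and 114, 107 and 118 CPM on cytosol-labelled ones, with 151 to 157 CPM in whole-cell RNA. Its log2 ratio of 2.67 (SE 0.037) ranked 10 from the highest of 16221 genes. Rpn1 (ribophorin I), which presents membrane proteins to the catalytic site, had 654, 653 and 643 CPM on ER-labelled and 116, 111 and 120.4 CPM on cytosol-labelled ribosomes, and 199 to 214 CPM in whole-cell RNA. Its log2 ratio was 2.49 (SE 0.037), rank 37. Rpn2 (ribophorin II), the most abundant member in CPM, had 1054, 1078 and 1032 CPM on ER-labelled and 204, 196 and 205 CPM on cytosol-labelled ribosomes, and 264 to 277 CPM in whole-cell RNA, with a log2 ratio of 2.39 (SE 0.035), rank 88. For these 3 genes the ER-labelled libraries lay above all others by more than 3 times. Opposite-strand genes overlap 5.46% of the exon bases of Rpn2 (Mroh8) and 2.9% of those of Rpn1 (Mir6376).

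Dad1, a small membrane protein first found as a defender against apoptotic cell death, differed from the others in its order of groups. It was at 160.4, 160.1 and 159.7 CPM on ER-labelled ribosomes, at 50.9, 49.4 and 50.2 CPM on cytosol-labelled ribosomes and at 44.4 to 45.8 CPM in whole-cell RNA. Both ribosome pools were thus above whole-cell RNA. The log2 ratio between the pools was 1.67 (SE 0.039).

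Against whole-cell RNA of the same targeting, all 9 members were higher on ER-labelled ribosomes, where 32.5% of all genes were called higher (5271 higher and 4967 lower, or 8396 and 2289 with the cytosolic reference). Their log2 ratios ranged from 0.35 to 2.22 with a median of 1.62, beside 0.01 over all genes. Ddost led with 2.22 (SE 0.037), followed by Rpn2 with 1.97 (SE 0.034) and Dad1 with 1.83 (SE 0.040). Rpn1 had 1.67, Ostc 1.62, Krtcap2 1.30 and Magt1 0.99. Stt3b and Stt3a came last, and the intervals of 1.96 SE around their values, 0.55 to 0.70 and 0.27 to 0.44, did not overlap those of any other member.

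On cytosol-labelled ribosomes 8 members were lower than in whole-cell RNA and 1, Dad1, was higher. Over all genes 33% were called lower and 20.8% higher. The members' median log2 ratio was -0.44, beside -0.05 over all genes. After Stt3a, the ratios were -1.06 (SE 0.059) for Magt1, -1.01 for Stt3b, -0.85 (SE 0.037) for Rpn1, -0.44 for both Rpn2 and Ddost (SE 0.034 and 0.037), -0.31 (SE 0.041) for Ostc and -0.16 (SE 0.046) for Krtcap2. The call of Krtcap2 was lost when replicate 2 of the cytosol ribosome-bound group was left out (-0.11), and equally on leaving out a single cytosol whole-cell replicate (-0.12, -0.09 and -0.12) or a single ER ribosome-bound one (-0.11 in each), with DESeq2 (-0.12), with no filter (-0.11), with mitochondrially encoded genes left out and with only these groups fitted (-0.10 in both). Dad1, at 0.14 (SE 0.042, adjusted p = 0.0041, edgeR), was called higher in every alternative run.

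**Figure D2:**
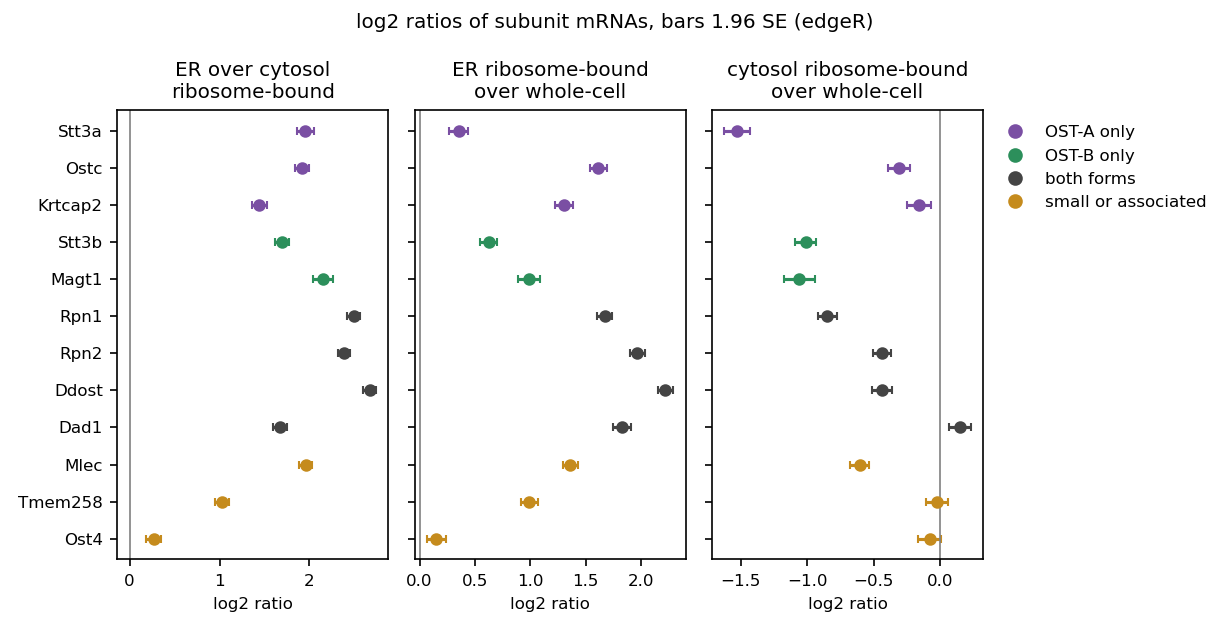
log2 ratio of each subunit mRNA in 3 comparisons (horizontal axes, which differ in range), with bars of 1.96 SE from edgeR; colours give the form of the complex, and the lowest 3 rows are the small or associated proteins. ER over cytosol ribosome-bound ratios of the 9 members lie between 1.44 and 2.67, while their ratios over whole-cell RNA spread from 0.35 to 2.22 and from -1.53 to 0.14.

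Whole-cell RNA of both targetings was compared to ask whether levels differed between the cells before purification. None of the 9 members was called, and 0% of all genes were (0 by edgeR and by DESeq2, 634 at an unadjusted p under 0.05). The members' log2 ratios of ER-targeted over cytosol-targeted cells ran from -0.03 (Rpn1) to 0.10 (Magt1), and the widest interval, that of Magt1, ran from -0.0046 to 0.21. Stt3b was the only member whose 3 ER whole-cell libraries (163 to 172 CPM) lay above all cytosol whole-cell libraries (157 to 162 CPM), at a log2 ratio of 0.06 (SE 0.040).

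Tested directly, the enrichment over whole-cell RNA was larger with ER than with cytosol targeting for all 9 members (edgeR; 24.8% of all genes were called higher in this test), with log2 differences of 1.46 to 2.66.

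The members' ratios between both ribosome pools spanned 1.23 on the log2 scale, less than their ratios of ER-labelled ribosomes over whole-cell RNA (1.87) or of cytosol-labelled ribosomes over whole-cell RNA (1.68). A gene that stood low against whole-cell RNA on one pool tended to stand low on the other. Over the 9 members, Pearson's r between both ratios over whole-cell RNA was 0.75 and Spearman's rho 0.6. Over 2304 tested genes whose protein has at least 2 hydrophobic segments the values were 0.52 and 0.34. Both are descriptions across genes: the 2 ratios share no library, but they share the scaling and the transcripts' lengths. Coding length and the ratio of cytosol-labelled ribosomes over whole-cell RNA had a Spearman's rho of -0.78 over the 9 members and of -0.36 over the 2304 genes. For ER-labelled ribosomes over whole-cell RNA the values were -0.33 and -0.48, and for ER-labelled over cytosol-labelled ribosomes 0.40 and -0.27. On cytosol-labelled ribosomes Stt3a (2115 coding bases) and Stt3b (2469) stood near the bottom and Dad1 (339) at the top. Magt1, with only 1104 coding bases, stood near the bottom too (-1.06).

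**Figure D3:**
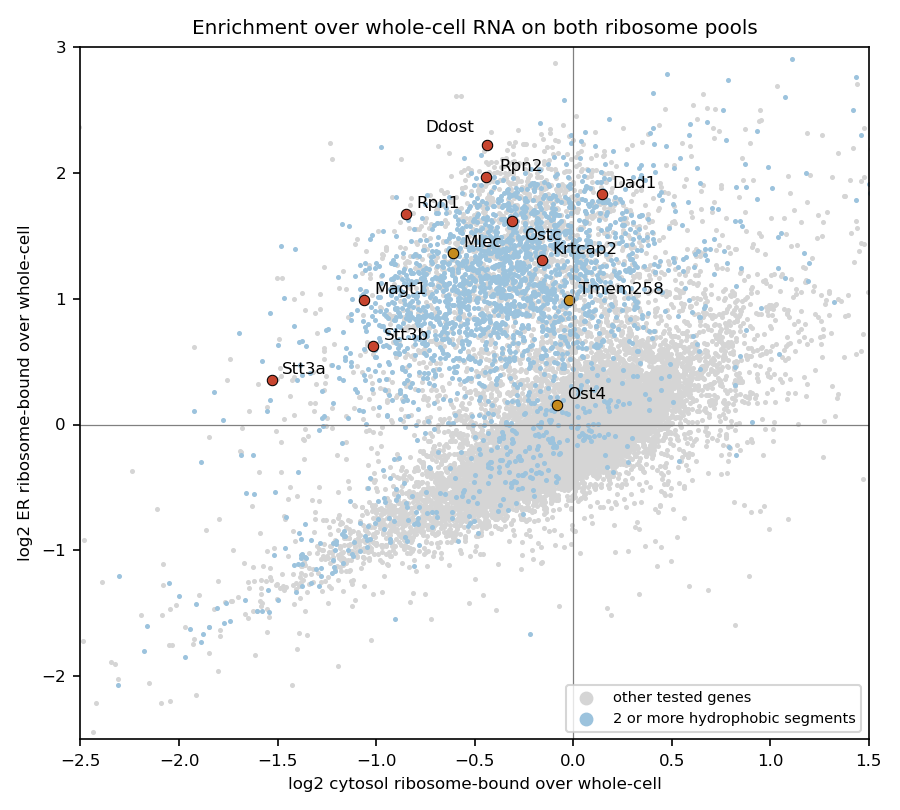
log2 ratio of ER ribosome-bound over whole-cell RNA (vertical) against that of cytosol ribosome-bound over whole-cell RNA (horizontal) for all tested genes (grey), genes of proteins with 2 or more hydrophobic segments (blue), the 9 members (red) and Ost4, Tmem258 and Mlec (orange); 219 genes lie outside the axes. The members run from Stt3a (-1.53, 0.35) to Dad1 (0.14, 1.83), and Ddost is the highest at 2.22.

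Because both catalytic subunits are read in the same library, their ratio does not depend on scaling between libraries. Counts of Stt3a over those of Stt3b were 0.60, 0.58 and 0.59 on cytosol-labelled ribosomes and 0.69, 0.71 and 0.72 on ER-labelled ones. In whole-cell RNA they were 0.81, 0.82 and 0.90 with cytosol targeting and 0.85, 0.88 and 0.83 with ER targeting. Stt3a was thus the less read of the pair everywhere, more so on ribosomes than in whole-cell RNA, and most so on cytosol-labelled ribosomes. As log2 ratios the means were -0.76 ± 0.014 (SD, n = 3) on cytosol-labelled ribosomes, -0.50 ± 0.034 on ER-labelled ribosomes, -0.24 ± 0.084 in cytosol whole-cell RNA and -0.23 ± 0.049 in ER whole-cell RNA. The difference was 0.26 between both ribosome pools, -0.27 between ER-labelled ribosomes and whole-cell RNA and -0.52 between cytosol-labelled ribosomes and whole-cell RNA. Groups did not overlap in any of these 3 comparisons, and each gave an exact two-sided permutation p of 0.1, the smallest that 3 libraries against 3 allow (0.11 after adjustment over 8 comparisons of within-library ratios). The whole-cell groups overlapped (difference 0.01, exact permutation p = 0.8).

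The tested subunits found in 1 form only were also summed, per kb of exon, as Stt3a, Ostc and Krtcap2 over Stt3b and Magt1. The OST-B sum lacks Tusc3, which is not analysed here, so the ratio does not compare the complete forms. This ratio was 2.40 ± 0.11 (SD, n = 3) on cytosol-labelled ribosomes, 2.26 ± 0.010 on ER-labelled ribosomes, 1.58 ± 0.049 in cytosol whole-cell RNA and 1.51 ± 0.0028 in ER whole-cell RNA. It was higher in each library of both ribosome pools than in any whole-cell library, the opposite of the ratio of the catalytic subunits alone. Most of the OST-A sum came from the small subunits: on ER-labelled ribosomes Ostc had 82.4 and Krtcap2 75.3 CPM per kb, beside 20.3 for Stt3a. The log2 differences from whole-cell RNA were 0.58 for ER-labelled and 0.61 for cytosol-labelled ribosomes, that between both ribosome pools was -0.09 and that between both whole-cell groups -0.06. Groups did not overlap in any of these 4 comparisons, each with the smallest exact permutation p possible, 0.1 (0.11 adjusted).

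**Figure D4:**
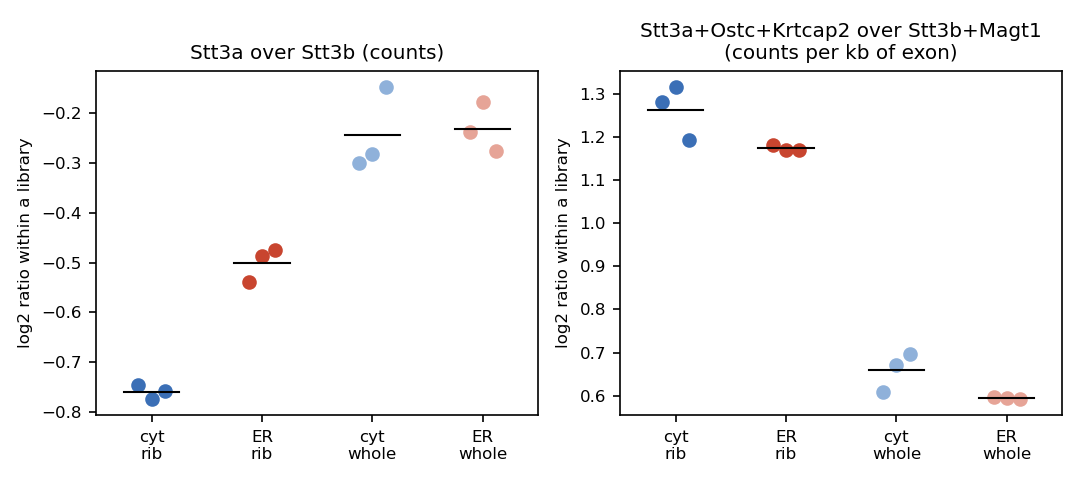
log2 ratio within each library of Stt3a over Stt3b counts (left) and of the OST-A subunits Stt3a, Ostc and Krtcap2 over the OST-B subunits Stt3b and Magt1 in counts per kb of exon (right); points are libraries, lines group means, and the axes do not start at 0. On the left the ribosome-bound groups (-0.76 and -0.50) lie below the whole-cell groups (-0.24 and -0.23), and on the right they lie above them. The OST-B sum on the right lacks Tusc3.

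Per kb of exon, Ddost held the largest share of the members' summed level in every group, and that share was larger on ER-labelled ribosomes. It was 33.3% ± 0.27 (SD, n = 3) there, 24.8% ± 0.62 on cytosol-labelled ribosomes, and 23.2% ± 0.39 and 23.3% ± 0.43 in cytosol and ER whole-cell RNA. Stt3b went the other way, with 5.96% ± 0.20 on ER-labelled ribosomes, 8.71% ± 0.43 on cytosol-labelled ribosomes and 12.2% ± 0.25 and 12.6% ± 0.17 in whole-cell RNA. Stt3a had 1.99% ± 0.094 on ER-labelled ribosomes and 5.08% ± 0.20 in ER whole-cell RNA. In ER whole-cell RNA the levels per kb ran from 9.12 CPM per kb for Magt1, 11.5 for Dad1 and 15.9 for Stt3a to 45.2 for Rpn1, 60.9 for Rpn2 and 72.8 for Ddost. The order depends on the length used. Per kb of coding sequence Dad1 had 132.9 CPM per kb and Ostc 165.6, above the 116.6 of Ddost, while Magt1 stayed lowest with 38.6. Stt3a and Stt3b were then nearly alike (67.1 and 67.4), against 15.9 and 39.4 per kb of exon. The shares above use exon length.

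The small shared proteins differed from the members in size of change. Ost4, which stabilises the catalytic subunit, stood at 86.9, 92.8 and 87.1 CPM on ER-labelled ribosomes, 71.1, 75.8 and 75.3 CPM on cytosol-labelled ribosomes and 76.0 to 82.7 CPM in whole-cell RNA. It was called higher on ER-labelled than on cytosol-labelled ribosomes at a log2 ratio of only 0.27 (SE 0.043, adjusted p = 2.3e-06, edgeR). Tmem258 had 123, 129 and 133 CPM on ER-labelled ribosomes, 61.7 to 64.2 CPM on cytosol-labelled ribosomes and 63.2 to 65.2 CPM in whole-cell RNA, a log2 ratio of 1.03 (SE 0.040). Mlec had 561, 533 and 544 CPM on ER-labelled and 140.9, 140.7 and 140.0 CPM on cytosol-labelled ribosomes, a log2 ratio of 1.96 (SE 0.035) that equals that of Stt3a. On cytosol-labelled ribosomes over whole-cell RNA, Mlec was lower (-0.61, SE 0.036), while Ost4 (-0.08, interval -0.17 to 0.0037) and Tmem258 (-0.02, interval -0.10 to 0.06) were not called; the sign of Tmem258 turned with other scalings and is no direction. Counts of Ost4 are uncertain, because 53.2% of its exon bases overlap Agbl5 on the other strand. For Tmem258 the share is 8.07% (Fen1).

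The ratios were also set beside those of genes in the same class of hydrophobic segments and protein length; these classes are broad and do not match genes by topology. Among tested genes with a coding sequence, the median log2 ratio of ER-labelled over cytosol-labelled ribosomes was -0.11 for 9193 genes without a hydrophobic segment, 0.39 for 2627 genes with 1 segment and 1.37 for 2243 genes with 2 or more segments and at least 150 residues. For 61 genes with 2 or more segments and under 150 residues it was 1.24. Ddost (441 residues, 2 segments) stood above 99.9% of its class, Rpn1 (608 residues, 2 segments) above 99.5% and Rpn2 (631 residues, 2 segments) above 99.0%. Magt1 (368 residues, 4 segments) stood above 95.8%, Stt3a (6 segments) above 88.2% and Stt3b (9 segments) above 72.0%. Of the short proteins, Ostc (149 residues) stood above 93.4%, Dad1 (113 residues) above 75.4% and Krtcap2 (136 residues) above 65.6% of their class. Tmem258 (79 residues) stood above 36.1% of that class, and Ost4 (37 residues) above 46.1% of the genes with 1 segment. The order among the short proteins followed the residues left after the first segment only in part: 12 in Ost4, 40 in Tmem258, 64 in Dad1, 95 in Ostc and 116 in Krtcap2. Several subunits carry acceptor motifs for the reaction they catalyse, asparagine followed by any residue but proline and then serine or threonine: 6 in Stt3b, 4 in Stt3a, 3 in Rpn2 and 2 each in Rpn1 and Magt1, with 0 in Ddost, Dad1, Ostc and Krtcap2.

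**Figure D5:**
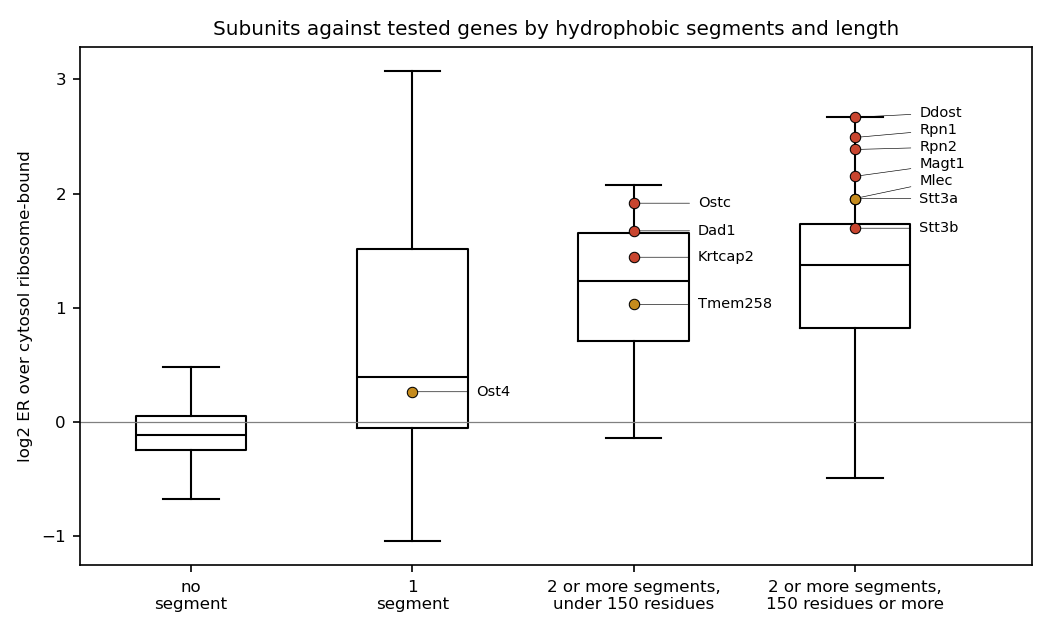
log2 ratio of ER over cytosol ribosome-bound RNA for tested genes grouped by hydrophobic segments and protein length; boxes give median and quartiles, whiskers reach the last gene within 1.5 times the box height, and genes beyond them are not drawn. Members (red) and Ost4, Tmem258 and Mlec (orange) are shown in their class: Ddost, Rpn1 and Rpn2 lie at the top of the longest class, and Ost4 near the median of the genes with 1 segment.

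The rest of the N-glycosylation pathway was taken as 3 lists, chosen with earlier results of these data known. Between both ribosome pools, 29.1% of all genes were called higher and 24.6% lower. Of 23 genes that build the lipid-linked glycan, 22 were higher on ER-labelled than on cytosol-labelled ribosomes and 1, Dpm1 (0.29, SE 0.13), was not called, with a median of 1.61. The highest were the first mannosyltransferase Alg1 (2.12, SE 0.066) and the glucosyltransferase Alg8 (2.08, SE 0.082). The lowest were the dolichol-synthesising Dhdds (0.28, SE 0.057) and Alg13 (0.10, SE 0.034), a cytosolic subunit of a glycosyltransferase, whose call was lost with relative log expression (RLE) size factors (0.06), DESeq2 (0.05), no filter (0.03) or mitochondrially encoded genes left out (0.04), and without any 1 library (0.03 to 0.04) other than cytosol ribosome-bound replicates 1 and 3 and ER whole-cell replicate 1. Of 13 genes of glycan trimming and lectin-assisted folding, 12 were higher, with a median of 2.06. They were led by Pdia3 (2.48, SE 0.036), the disulfide isomerase that works with calnexin and calreticulin, and the glucosidase II subunit Ganab (2.28, SE 0.036), with the glucosyltransferase Uggt2 lowest of the 12 (1.14, SE 0.18). Ngly1, which removes glycans from proteins in the cytosol, was called lower (-0.27, SE 0.10, adjusted p = 0.030, edgeR), but not without cytosol ribosome-bound replicate 1 (-0.27) or 3 (-0.20), nor with the cytosolic reference (-0.02).

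Of 10 translocon genes, 8 were higher, with a median over the list of 1.72. The highest were the translocon-associated proteins Ssr1 (2.27, SE 0.034) and Ssr2 (2.12, SE 0.034). The tail-anchored channel subunits were the exceptions: Sec61g (0.04, SE 0.046) was not called and Sec61b (-0.10, SE 0.042) was called lower, but with the cytosolic reference both were called higher (0.30 and 0.15) and all 10 genes were. Without cytosol ribosome-bound replicate 3 the call of Sec61b was lost (-0.10), as it was with only these groups fitted (-0.10). On cytosol-labelled ribosomes against whole-cell RNA, 17 of the 23 genes of glycan assembly, 13 of 13 of trimming and 9 of 10 of the translocon were lower, beside 33% of all genes. Leaving out 1 library gave 15 to 17, 11 to 13 and 7 to 9. The medians were -0.49, -0.48 and -0.49, close to the members' -0.44. On ER-labelled ribosomes against whole-cell RNA, 21 of 23, 12 of 13 and 8 of 10 were higher, beside 32.5% of all genes. Leaving out 1 library gave 21, 11 to 12 and 8. The medians were 1.12, 1.45 and 1.11, beside 1.62 for the members.

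The tested genes nearest to the members' median in the 3 comparisons were the zinc transporter gene Slc39a11, the sphingolipid regulator Ormdl1, the protocadherin Pcdh1, the secreted protein gene Fam3c and Igdcc3, of the immunoglobulin superfamily. Their root mean square distance over the 3 log2 ratios was 0.013 (Slc39a11), 0.014 (Ormdl1), 0.025 (Pcdh1), 0.025 (Fam3c) and 0.027 (Igdcc3), among genes with a mean of at least 10 CPM. Slc39a11, for example, had log2 ratios of 1.94 between both ribosome pools, 1.62 for ER-labelled and -0.44 for cytosol-labelled ribosomes over whole-cell RNA.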

How the data were processed

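Poly(A) RNA was sequenced from 12 libraries in 4 groups of 3. The deposited values are read counts per Ensembl gene, not normalized by the authors. Per the submitters' processing notes, which give no roles, the tools were HTSeq 0.11.2, STAR 2.7.9a and DESeq2 (no version) and the build GRCm39. The annotation release was not given in the sources used here, nor was the strand setting. Class totals for reads outside genes (8.75% to 12.5% of reads per library) entered neither library sizes nor tests. Symbols, lengths and coding sequences came from GENCODE M21, built on GRCm38, so no coordinates were used; 3281 identifiers had no symbol and held 0.399% of counts.

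Genes were filtered with filterByExpr (16221 kept), scaled by TMM and fitted in 1 model of 4 groups with edgeR 4.0.16 (R 4.3.3; biological coefficient of variation 3.61%). Each of 5 comparisons was tested two-sided, with Benjamini-Hochberg adjustment at 0.05; SE was taken as the size of the log2 ratio divided by the root of the F statistic. Within-library ratios used counts plus 0.5 and an exact permutation test. The procedure was tested on simulated counts. Members and lists were chosen with earlier results of these data known. Named genes were all members, Ost4, Tmem258 and Mlec, and from each pathway list the 2 highest and 2 lowest ratios between ribosome pools; Dpm1 was named after its value was seen; the 5 genes most alike followed a distance rule. Alternatives were RLE size factors, scaling to 85 cytosolic reference genes, no filter, DESeq2 1.42.0, replicate blocks, mitochondrially encoded genes left out, only the groups compared, each library left out, other pseudocount, coding length and a segment threshold of 1.8. Errors cover counting and the spread between these libraries, not PCR amplification.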

Additional observations from a re-analysis of the deposited data

Results flagged for a closer look

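For each of the 9 members the enrichment over whole-cell RNA differed between ER and cytosol targeting, by edgeR's quasi-likelihood test of the difference itself (24.8% of all genes were called higher in this test). The log2 differences were 2.66 (SE 0.052) for Ddost, 2.52 (SE 0.051) for Rpn1, 2.41 (SE 0.048) for Rpn2, 2.05 (SE 0.077) for Magt1, 1.93 (SE 0.057) for Ostc, 1.89 (SE 0.066) for Stt3a, 1.68 (SE 0.058) for Dad1, 1.64 (SE 0.057) for Stt3b and 1.46 (SE 0.063) for Krtcap2. Adjusted p ran from 5.1e-30 for Ddost to 4.5e-21 for Krtcap2 (edgeR), and all 9 were higher in each alternative run. With whole-cell RNA nearly equal in both targetings, these values differ by at most 0.10 from the direct ratios of ER-labelled over cytosol-labelled ribosomes, with which they share the ribosome-bound libraries. Of the small and associated proteins, Mlec had 1.97 (SE 0.050) and Tmem258 1.01 (SE 0.058). Ost4 had 0.23 (SE 0.062), a call that was lost without cytosol whole-cell replicate 3 (0.15), replicate 2 of ER ribosome-bound RNA (0.15) or replicate 3 of ER whole-cell RNA (0.15).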

How the results depend on the processing

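Every call of a member kept its direction and its side of the threshold in each alternative run, except that of Krtcap2 on cytosol-labelled ribosomes over whole-cell RNA, whose ratio without 1 library ranged from -0.18 to -0.09. Scaling to cytosolic reference genes raised the median of all genes by 0.252 between both ribosome pools, 0.243 for ER-labelled ribosomes over whole-cell RNA and 0.262 for the difference of enrichments. It gave 8543 higher and 518 lower genes (members' median 2.21), 8396 and 2289 (1.86), and 6910 and 278 (2.19), and Ost4 was then called lower on cytosol-labelled ribosomes (-0.10); these shifts are its construction. With no filter the members' median between both pools was 1.89 and 7 genes were called lower in ER whole-cell RNA. Leaving out 1 library gave 1.86 to 2.02 and 0 to 2 for these. With coding length, the ratio of OST-A over OST-B subunits differed by 0.57 between ER-labelled ribosomes and whole-cell RNA. Results near 0 changed sign, and the cause was not tested. Tmem258 on cytosol-labelled ribosomes over whole-cell RNA was 0.018 with RLE size factors, 0.016 with DESeq2, 0.029 with no filter, 0.035 with mitochondrially encoded genes left out, 0.034 with only these groups fitted and -0.023 to 0.036 without 1 library. Ost4 in the same comparison was -0.094 to 0.0038 without 1 library. Between both pools, Sec61b was 0.15 with the cytosolic reference, and Sec61g -0.024 with no filter, -0.015 with mitochondrially encoded genes left out, -0.0034 with DESeq2 and -0.029 to 0.053 without 1 library. With a segment threshold of 1.8 the median of genes with 1 segment rose to 1.06. That of genes with 2 or more segments and under 150 residues rose to 1.37. Rpn2 then had 1 segment and so left the class in which it was ranked.

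Whole-cell RNA came from lysate kept back before purification, but the labels do not tie the replicate number to a lysate. Same-numbered libraries did not all deviate together (correlation -0.006, 0.261 and 0.268 for ER ribosome-bound with whole-cell, 0.098, 0.100 and 0.058 for cytosol), nor did each correlate best with its own number. A replicate block by number gave 4692 higher and 3945 lower genes between both pools, and one by lysate 5362 and 5086 over ER whole-cell RNA; neither block changed a call of a member, but the block by number lost that of Sec61b (-0.10). The ratio of Magt1 over Tusc3 was not run. Depth limited no member, the smallest count being 482 reads.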
